A study of Arabidopsis thaliana with 6 samples.

Results

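The short arm of Arabidopsis thaliana chromosome 2 carries, beside its centromere, a long copy of the mitochondrial genome that was moved into the nucleus. The deposited table gives separate gene identifiers to the copied genes. The entries described here are the 136 of its 33557 whose identifier starts with AT2G and whose locus starts between 3.2 and 3.51 Mb on chromosome 2 (TAIR10). They were chosen by identifier and position with their values in both groups already in view, so their difference between the groups is described and not tested. The 146 entries of the mitochondrial genome, whose identifiers start with ATMG, are set beside them. Whole 7-day-old seedlings of the cbe1 mutant (3 libraries) and of the wild-type accession Col0 (3 libraries) were compared by sequencing of poly(A) RNA. All of them had been raised on MS plates with 1% sucrose, in days of 16 h light and 8 h dark. The mutant is affected in CBE1 (Conserved Binding of eIF4E 1), which in plants binds eIF4E, the translation factor on the mRNA cap, and the sources used here do not state the kind of mutation.

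A stretch of organelle DNA inside a nuclear chromosome is called a nuclear mitochondrial insertion, and such copies are usually taken to be relics of a past transfer. In the organelle, the same genes encode subunits of the respiratory chain, of the ATP synthase and of the mitochondrial ribosome, and proteins that mature cytochrome c. Plant mitochondrial transcripts carry no stable poly(A) tail, and a tail added to them marks them for decay. The insertion in the plant is known to be longer than the copy held in the assembly.

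In the TAIR10.1 reference the copied stretch ran from 3239038 to 3509765 on chromosome 2, which is 270.7 kb. It aligned with the reference mitochondrial genome in 17 blocks of at least 1000 bases, 7 in the same and 10 in the opposite orientation. Identity within a block lay between 99.56% and 99.97%, with 206 mismatches over 288139 aligned bases, or 1 in 1399. The blocks covered 99.59% of the insertion and 72.2% of the mitochondrial genome. Of the 136 entries, 129 lay inside the insertion and 7 before it, and none crossed its start. The reference annotates the 129 as 63 protein-coding genes, 27 transcribed pseudogenes, 21 tRNA genes and 18 pseudogenes.

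The edges of the copied stretch show the change from nuclear to mitochondrial sequence, with the mitochondrial part in capitals. The left edge is chr2:3238998-3239077 and the right edge chr2:3509726-3509805, both on the forward strand of TAIR10.1 (RefSeq).
left edge: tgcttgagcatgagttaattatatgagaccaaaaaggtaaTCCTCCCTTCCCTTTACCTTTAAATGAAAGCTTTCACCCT
right edge: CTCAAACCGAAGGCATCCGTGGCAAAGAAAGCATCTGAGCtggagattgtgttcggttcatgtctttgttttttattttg

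A short stretch of sequence can seldom tell the 2 genomes apart. Of all 50-letter windows of the insertion, 95.9% occur letter for letter in the mitochondrial genome, and of all 100-letter windows 92.3%, against 0.00% of the 50-letter windows of the nuclear stretch before it. Every 50-letter window was shared in 67 of the 129 entries, and every 100-letter window in 53 of the 115 entries that are long enough. Stretches of 100 bases around the first letter at which the genomes differ are shown for 2 loci. Whether an RNA read could be assigned by such a letter was not tested. AT2G07698 holds the copy of atp1, the gene of the alpha subunit of the ATP synthase, and AT2G07711 that of nad5, a subunit of complex I. The chromosome 2 lines are chr2:3361878-3361977 on the forward strand and chr2:3397676-3397775 on the reverse strand, and capitals mark the letter that differs.
AT2G07698 chromosome 2: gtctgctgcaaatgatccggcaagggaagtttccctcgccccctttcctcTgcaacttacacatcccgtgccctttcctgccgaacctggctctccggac
AT2G07698 mitochondrial genome: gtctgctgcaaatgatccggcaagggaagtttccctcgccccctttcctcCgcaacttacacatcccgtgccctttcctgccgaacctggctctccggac
AT2G07711 chromosome 2: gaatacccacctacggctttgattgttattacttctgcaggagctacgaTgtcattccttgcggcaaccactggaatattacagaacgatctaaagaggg
AT2G07711 mitochondrial genome: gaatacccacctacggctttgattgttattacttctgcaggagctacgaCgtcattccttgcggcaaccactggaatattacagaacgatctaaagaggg

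Plant mitochondrial genomes hold pieces of plastid DNA, and the copy on chromosome 2 carries some of them along. It held 6 of them of at least 100 bases at 90% identity or more. The piece of rbcL, the gene of the large subunit of Rubisco, lies in AT2G07732 and was 96.86% identical to the plastid gene. The piece of psbA, the gene of the D1 protein of photosystem II, lies in AT2G07688 and was 95.26% identical. Stretches of 120 bases of each are shown because the entries on these pieces went the other way from most of the insertion. They are chr2:3468497-3468616 and chr2:3331620-3331739, both on the reverse strand. Capitals mark letters that differ from the plastid line.
AT2G07732 chromosome 2: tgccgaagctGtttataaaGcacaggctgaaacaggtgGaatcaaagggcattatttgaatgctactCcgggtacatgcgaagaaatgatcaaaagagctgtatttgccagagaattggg
AT2G07732 mitochondrial genome: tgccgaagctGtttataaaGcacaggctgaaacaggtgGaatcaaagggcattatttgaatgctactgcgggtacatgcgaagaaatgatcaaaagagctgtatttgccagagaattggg
AT2G07732 plastid rbcL: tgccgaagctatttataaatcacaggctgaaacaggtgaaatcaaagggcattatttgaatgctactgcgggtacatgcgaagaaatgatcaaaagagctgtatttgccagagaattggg
AT2G07688 chromosome 2: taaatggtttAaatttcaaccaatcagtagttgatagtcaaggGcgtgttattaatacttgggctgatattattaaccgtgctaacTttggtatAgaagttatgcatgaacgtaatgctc
AT2G07688 mitochondrial genome: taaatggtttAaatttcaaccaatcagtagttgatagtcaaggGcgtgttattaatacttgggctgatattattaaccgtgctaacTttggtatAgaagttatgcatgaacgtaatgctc
AT2G07688 plastid psbA: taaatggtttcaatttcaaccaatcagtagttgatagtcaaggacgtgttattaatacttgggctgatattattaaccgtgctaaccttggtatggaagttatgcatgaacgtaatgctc
The first stretch differed from the plastid at 4 letters and from the mitochondrial genome at 1, and the second at 4 and 0. Each was picked as the stretch of its piece with the most letters that differ from the plastid and no gap, so these counts are not typical of the piece. In AT2G07732, 83.0% of the 50-letter windows occur in the mitochondrial genome and 24.9% in the plastid genome. For AT2G07688 the shares were 95.2% and 7.46%.

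All levels below are the authors' FPKM (fragments scaled to transcript length and library size), 1 pooled value per group, so no spread between the 3 libraries can be given and their depth is unknown. The error printed with a log2 ratio of cbe1 over Col0 is the ratio divided by the authors' test statistic, here called the implied SE. Entries with an authors' q-value below 0.05 are called. In the table as a whole 18450 tested entries with a mean of at least 1 FPKM had a median log2 ratio of 0.175, and that shift is the base against which a difference can be read. The transcript of AT4G01290, taken to be CBE1 from knowledge of the study and given another product name by the reference annotation, was at 4.48 FPKM in cbe1 and 13.8 FPKM in Col0, and was called lower. Green-tissue and root markers were present in both groups and none of those with a value was called (RBCS1A and LHCB1.3 carried failed estimates). The root markers went both ways. PYK10 was at 1583 FPKM in cbe1 and 2440 FPKM in Col0. CASP1 was at 29.85 FPKM in cbe1 and 19.45 FPKM in Col0, and MYB36 at 2.26 FPKM in cbe1 and 1.56 FPKM in Col0. The pollen markers were below 0.1 FPKM. Of the seed storage markers, SESA1 was called lower, at 0.179 FPKM in cbe1 and 3.43 FPKM in Col0, and CRA1 was called higher, at 53.4 FPKM in cbe1 and 19.0 FPKM in Col0. The part of either group of markers in the results was not tested.

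Transcripts assigned to the insertion were lower in cbe1 almost throughout. Of the 129 entries, 23 were at 0 in both groups, all of them tRNA genes or tRNA-derived pseudogenes, and 106 were above 0 in both. Of the 106, 100 had a lower value in cbe1 and 6 a higher one. Their median log2 ratio was -1.36, with quartiles at -1.93 and -0.92. Summed over the insertion the entries came to 473 FPKM in cbe1 and 826 FPKM in Col0. The median entry of the insertion, zeros included, stood at 0.348 FPKM in cbe1 and 0.940 FPKM in Col0, and 62 entries reached 1 FPKM in at least 1 group. Over all 136 entries the median log2 ratio was -1.37, where all 32095 entries of the table above 0 in both groups had a median of 0.050.

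The authors had tested 91 of the 136 entries, left 44 untested for low signal and marked 1 as having too few data. They called 20 lower and 1 higher. Of all tested entries, 1101 of 22303 (4.94%) were called, 363 lower (1.63%) and 738 higher (3.31%). Since the values were in view when the entries were chosen, and since some may have passed the authors' minimum signal through their level in Col0 alone, nothing is read from the difference between these shares. The log2 ratios of the 20 lay between -2.32 and -0.86, with levels of 0.167 to 9.24 FPKM in cbe1 and 0.596 to 22.5 FPKM in Col0. Of the 20, 13 lay on copies of mitochondrial genes of known function and 7 on other reading frames or pseudogenes.

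**Figure D1:**
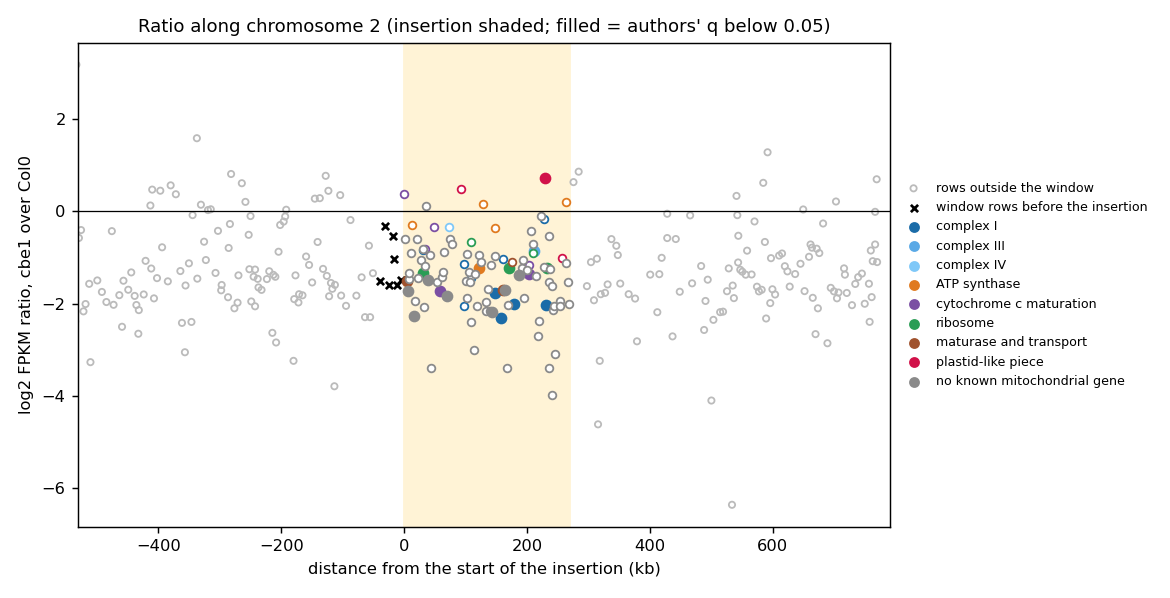
Log2 FPKM ratio of cbe1 over Col0 for each entry (y axis) against the distance of its start from the start of the insertion in kb (x axis). Coloured circles are insertion entries by the mitochondrial gene they carry, filled where the authors' q-value was below 0.05, crosses are the 7 entries of the window before the insertion and grey circles the entries within 500 kb on each side. Insertion entries lie below 0 along the whole 270.7 kb, with the rbcL piece as the filled exception above it.

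Copies of complex I genes (NADH dehydrogenase, the entry point of electrons into the respiratory chain) were lower in all 10 entries, with a median log2 ratio of -1.62, and 4 were called. The nad5 copy AT2G07711 fell to 4.08 FPKM in cbe1, against 20.3 FPKM in Col0, a log2 ratio of -2.32 (implied SE 0.21). AT2G07717, which carries nad4, was at 2.25 FPKM in cbe1 and 9.11 FPKM in Col0 (log2 -2.02, implied SE 0.20). These 2 entries show a gap of 4 to 5 times between the groups. The nad2 copy AT2G07733 was at 1.12 FPKM in cbe1 and 4.56 FPKM in Col0 (log2 -2.03, implied SE 0.32). For AT2G07709, with nad7, the values were 4.04 FPKM in cbe1 and 13.9 FPKM in Col0 (log2 -1.78, implied SE 0.19). All 4 of these are called lower. The reference annotates them as transcribed pseudogenes, while the organelle genes that they copy encode core subunits of the complex. The highest of the complex I entries, the nad1 piece AT2G07786 of only 256 bases, was at 15.4 FPKM in cbe1 and 31.7 FPKM in Col0 and was not called (log2 -1.04, implied SE 0.47). The nad3 copy AT2G07751 was at 5.74 FPKM in cbe1 and 10.2 FPKM in Col0 (log2 -0.83, implied SE 0.47). At the other end stood nad6 in AT2G07731, with 3.95 FPKM in cbe1 and 4.42 FPKM in Col0 (log2 -0.16, implied SE 0.34), so the copies of 1 complex ranged from near equality to a 5-fold gap. A further nad1 entry, AT2G07785, and 2 nad2 pieces, AT2G07689 and AT2G07808, had log2 ratios of -1.45, -1.15 and -2.05 and were not called.

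ATP synthase genes were assigned to 5 entries, 3 with lower and 2 with higher values in cbe1, with a median log2 ratio of -0.29. AT2G07777, named ATP synthase 9 in the reference but with no gene assigned, is not among them (log2 -0.91, implied SE 0.41, not called). AT2G07698, with atp1, fell to 9.24 FPKM in cbe1, against 21.8 FPKM in Col0 (log2 -1.24, implied SE 0.19). It was the only one of the 5 ATP synthase entries called. The atp9 copy AT2G07671, for the ring subunit c of the membrane rotor, was at 74.97 FPKM in cbe1 and 91.4 FPKM in Col0 (log2 -0.29, implied SE 0.20). AT2G07707, with atp8, was at 6.27 FPKM in cbe1 and 8.10 FPKM in Col0 (log2 -0.37, implied SE 0.39). The insertion holds atp6, for the subunit that forms the proton channel, at 2 places. AT2G07699 was at 3.16 FPKM in cbe1 and 2.82 FPKM in Col0 (log2 0.17, implied SE 0.34). AT2G07741 was at 3.57 FPKM in cbe1 and 3.12 FPKM in Col0 (log2 0.19, implied SE 0.33). Both atp6 values are within their error of 0 and of the shift of all genes.

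Of the later complexes, III and IV, 1 entry each was assigned a gene. The reference gives related names to entries with no gene assigned, AT2G07718 and AT2G07773 (cytochrome b/b6) and AT2G07695 (cytochrome c oxidase subunit II-like). AT2G07718 was called lower (log2 -1.39, implied SE 0.44). AT2G07773 and AT2G07695 had log2 ratios of -0.59 and -1.53 and were not called. The cytochrome b copy AT2G07727 of complex III, cob, fell to 3.15 FPKM in cbe1, against 5.71 FPKM in Col0 (log2 -0.86, implied SE 0.27). The cox3 copy AT2G07687, a core subunit of cytochrome c oxidase, was at 5.39 FPKM in cbe1 and 6.86 FPKM in Col0 and was not called (log2 -0.35, implied SE 0.28).

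Cytochrome c maturation, by which haem is attached to cytochrome c, is served by the genes in 6 entries, 5 of them lower, with a median log2 ratio of -0.99. AT2G07783, with ccmFN1, fell to 2.40 FPKM in cbe1, against 8.02 FPKM in Col0 (log2 -1.74, implied SE 0.24). The ccmFC entry AT2G07723 fell to 1.62 FPKM in cbe1, against 4.19 FPKM in Col0 (log2 -1.37, implied SE 0.27). It shares its locus with AT2G07815, the other ccmFC entry (log2 -1.16, implied SE 1.07). The ccmC entry AT2G07771, at the left end of the insertion, was among the 6 entries with a higher value in cbe1, at 1.14 FPKM in cbe1 and 0.869 FPKM in Col0 (log2 0.39, implied SE 0.63). AT2G07681, a second and longer entry over ccmC, was at 0.344 FPKM in cbe1 and 0.435 FPKM in Col0 (log2 -0.34, implied SE 0.53). Both differences are smaller than their errors, and the 2 entries over this gene have opposite signs.

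All 5 ribosomal protein copies were lower, with a median log2 ratio of -1.23. The rps12 copy AT2G07675 fell to 8.85 FPKM in cbe1, against 22.5 FPKM in Col0 (log2 -1.35, implied SE 0.36). AT2G07715 with rpl2 and AT2G07734 with rps4 fell by 1.23 each on the log2 scale, with implied SEs of 0.31 and 0.39. The rpl5 copy AT2G07725 was not called, at 3.84 FPKM in cbe1 and 7.15 FPKM in Col0 (log2 -0.90, implied SE 0.34). Another 2 entries hold the maturase gene matR, which in the organelle lies within an intron of nad1 and encodes a factor for intron splicing. AT2G07747 fell to 2.18 FPKM in cbe1, against 6.23 FPKM in Col0 (log2 -1.51, implied SE 0.41), and AT2G07712 fell to 0.853 FPKM in cbe1, against 2.78 FPKM in Col0 (log2 -1.70, implied SE 0.33). The last of the entries with a known gene, AT2G07716 with the transport gene mttB, had a log2 ratio of -1.09 (implied SE 0.56) and was not called.

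**Figure D2:**
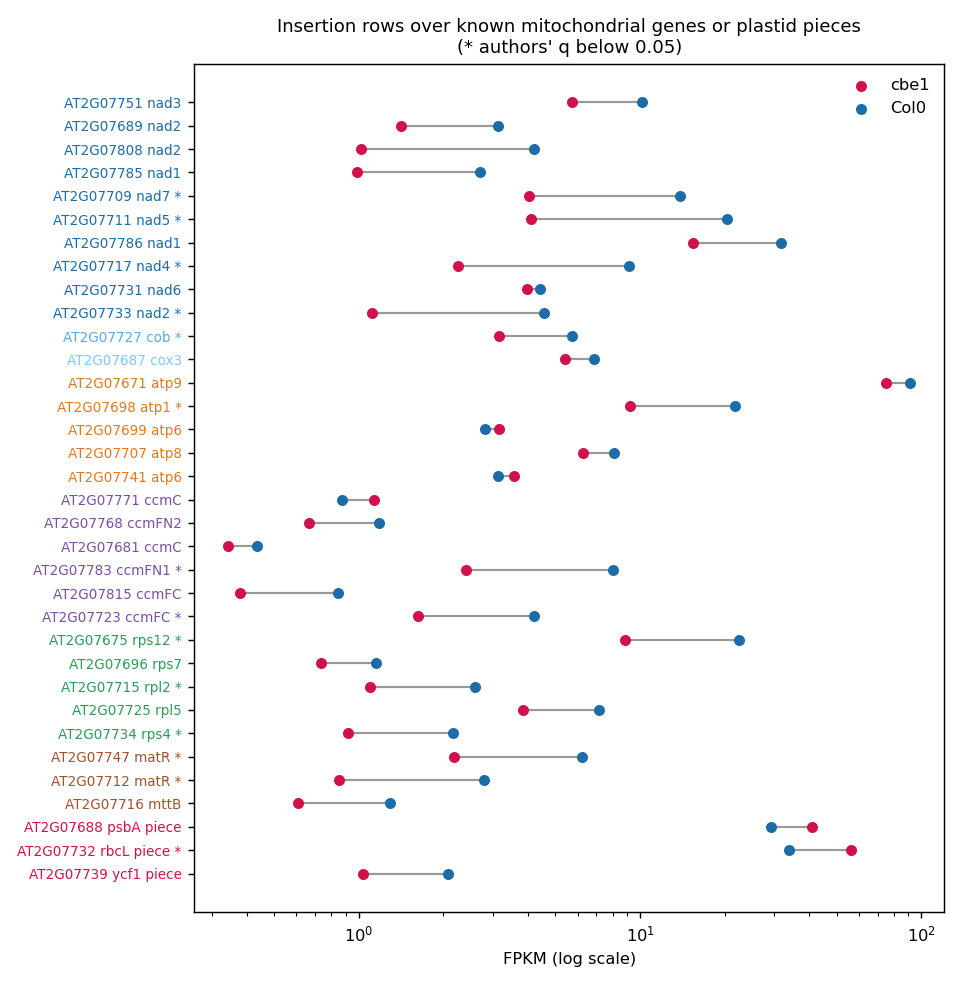
FPKM in cbe1 (red) and in Col0 (blue), on a log scale, for the 34 insertion entries that carry a known mitochondrial gene or 1 of the 3 plastid pieces, with an asterisk where the authors' q-value was below 0.05. Red points lie left of blue ones except for both atp6 copies, 1 of the 2 ccmC entries and the psbA and rbcL pieces, and the gap is widest for nad5, nad4, nad2 and nad7.

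The remaining 72 entries of the insertion above 0 in both groups are reading frames and pseudogenes to which no mitochondrial protein gene of known function was assigned. Of these, 71 were lower and 1 was higher, AT2G07769 at 0.530 FPKM in cbe1 and 0.490 FPKM in Col0, and their median log2 ratio was -1.49. The most abundant was AT2G07684, with 97.5 FPKM in cbe1 and 264 FPKM in Col0. Its locus is 111 bases long and the implied SE of its log2 ratio of -1.44 was 3.14, so the value is hardly determined, although it makes up a large share of the sum. AT2G07830 (27.8 FPKM in cbe1, 40.2 FPKM in Col0, implied SE 14.1) and AT2G07807 (25.4 FPKM in cbe1, 27.0 FPKM in Col0, implied SE 7.20) carry errors that are larger still. The longer AT2G07811 was at 8.00 FPKM in cbe1 and 12.2 FPKM in Col0 (log2 -0.60, implied SE 0.22), and was not called. AT2G07663 fell to 3.65 FPKM in cbe1, against 11.98 FPKM in Col0 (log2 -1.71, implied SE 0.52). The other entries that reach the upper levels of the insertion, AT2G07726, AT2G07708, AT2G07835, AT2G07774 and AT2G07825, had log2 ratios of -0.71, -0.97, -1.12, -0.88 and -3.40, and none was called.

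The pieces of rbcL and psbA had higher values in cbe1, unlike most of the insertion. AT2G07732, with the rbcL piece, rose to 56.5 FPKM in cbe1, against 33.9 FPKM in Col0 (log2 0.73, implied SE 0.21). It was the 1 entry of the insertion called higher, and it was no longer called once all test statistics were shifted to the median gene. AT2G07688, with the psbA piece, was at 41.0 FPKM in cbe1 and 29.1 FPKM in Col0 and was not called (log2 0.49, implied SE 0.19). The mitochondrial counterpart of the rbcL piece, ATMG00280, was at 28.5 FPKM in cbe1 and 16.9 FPKM in Col0 (log2 0.75, implied SE 0.37). The plastid genes rbcL and psbA themselves were far more abundant and were not called. The plastid psbA entry was at 1681 FPKM in cbe1 and 1379 FPKM in Col0, and the plastid rbcL entry at 565 FPKM in cbe1 and 401 FPKM in Col0, log2 ratios of 0.29 (implied SE 0.28) and 0.50 (implied SE 0.22). The third piece, of ycf1 in AT2G07739, did not share the direction of these. AT2G07739 was at 1.03 FPKM in cbe1 and 2.08 FPKM in Col0 (log2 -1.01, implied SE 0.58), and its counterpart ATMG00370 at 1.13 FPKM in cbe1 and 1.94 FPKM in Col0. In the plastid genome 2 entries, ATCG01000 and ATCG01010, share the locus that the ycf1 piece matches. They had log2 ratios of -0.45 (implied SE 0.28) and -0.10 (implied SE 0.30). They were matched by locus, so not both need be ycf1. A short piece of psbD, a gene of photosystem II, lies in AT2G07738, at 0.121 FPKM in cbe1 and 0.466 FPKM in Col0. The plastid locus it matches holds 2 entries, ATCG00270 and ATCG00280, and not both need be psbD. These rose to 103 and 219.5 FPKM in cbe1, against 39.6 and 87.3 FPKM in Col0, and both were called higher (log2 1.37 and 1.33). A further piece, of psaA, matches the plastid entries ATCG00340 and ATCG00350, and not both need be psaA. Both of them were called higher too (log2 1.06 and 1.05). Over the 116 plastid entries above 0 in both groups the median log2 ratio was -0.03.

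The entries of the mitochondrial genome showed differences of much the same size as the insertion. Of 146, 127 were above 0 in both groups, 113 of them lower and 14 higher in cbe1, with a median log2 ratio of -1.21. Of 111 tested, 18 were called lower and none higher, and at an unadjusted authors' p below 0.05 there were 34 lower and 1 higher, where the shares over all tested entries were 4.2% lower and 12.5% higher. Another 14 were at 0 in 1 group, 5 with a value in cbe1 alone and 9 with a value in Col0 alone, and none of them was called. Among them ATMG00100, ATMG00930 and ATMG00350 were at 1326, 1171 and 843 FPKM in cbe1 and listed at 0 in Col0, on loci of under 100 bases. The other way, ATMG00460, ATMG00950 and ATMG00360 were at 925, 924 and 216 FPKM in Col0 and listed at 0 in cbe1. The locus of ATMG00360 has 669 bases, and those of ATMG00460 and ATMG00950 have under 100. All entries summed to 12665 FPKM in cbe1 and 32158 FPKM in Col0, and those above 0 in both groups to 8992 FPKM in cbe1 and 29912 FPKM in Col0. The abundant entries named below make up most of these sums. What they encode was not looked up, and the sums say little about the remaining entries. The most abundant, ATMG01380, fell to 1327 FPKM in cbe1, against 8949 FPKM in Col0 (log2 -2.75, implied SE 0.66), ATMG01390 fell to 936 FPKM in cbe1, against 3816 FPKM in Col0 (log2 -2.03, implied SE 0.36), and ATMG00020 fell to 489 FPKM in cbe1, against 2333 FPKM in Col0 (log2 -2.25, implied SE 0.33). ATMG00030 fell to 172 FPKM in cbe1, against 1407 FPKM in Col0, a log2 ratio of -3.04 with an implied SE of 0.19, and ATMG00660 fell to 7.89 FPKM in cbe1, against 35.8 FPKM in Col0. The other abundant entries, ATMG00330, ATMG00780, ATMG00390 and ATMG00790, have loci of 76 to 88 bases and had log2 ratios of -1.64, -1.17, -0.90 and -0.66 with implied SEs above 1, and ATMG00250, with the lowest ratio among entries of at least 1 FPKM in both groups, had an implied SE of 6.13. The highest ratios among entries with at least 1 FPKM in both groups were those of ATMG01160 (1.99), ATMG00420 (1.95), ATMG00230 (0.94), ATMG00280 (0.75) and ATMG00270 (0.53), none of them called, the first 3 on loci of under 100 bases with implied SEs of 6.62 or more.

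**Figure D3:**
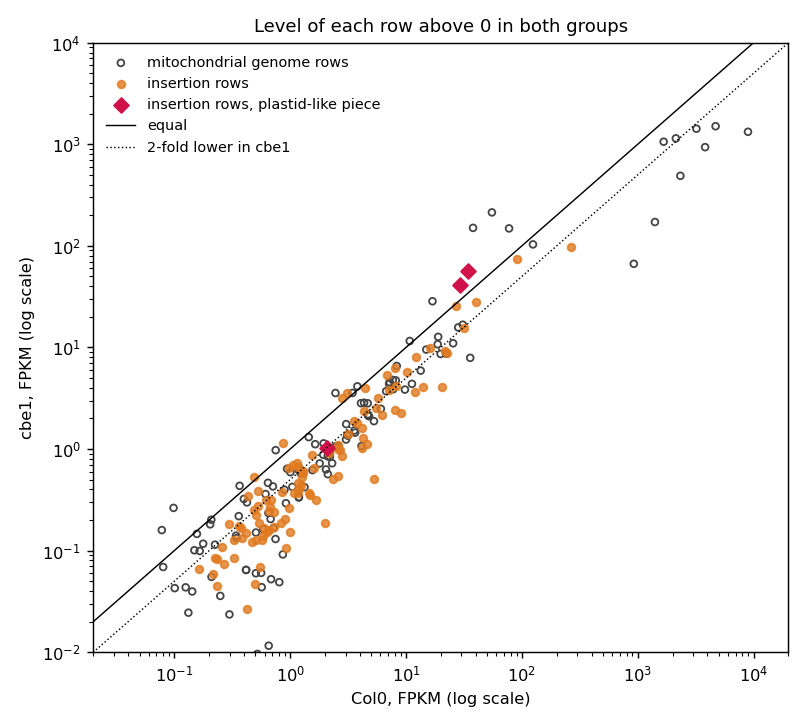
FPKM in cbe1 (y axis) against FPKM in Col0 (x axis), both on log scales, for insertion entries (orange), insertion entries on plastid pieces (red diamonds) and mitochondrial genome entries (open circles) above 0 in both groups. The solid line marks equal levels and the dotted line a level 2-fold lower in cbe1, around which both sets lie, and 2 of the 3 plastid pieces lie above the solid line.

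For 54 of the 129 insertion entries the reference annotation names a mitochondrial counterpart. Copies and counterparts come from the same libraries, and the insertion is nearly identical in sequence to the mitochondrial genome. Their values are therefore not independent of each other, and levels assigned to one cannot be told apart from reads of the other. The 2 loci of a pair can still be of very unlike length. The sources used here do not say how the aligner placed reads that match both. Among the 26 pairs with at least 1 FPKM in Col0 on both sides, 20 had levels within 2-fold of each other in Col0. The median ratio of the insertion entry to its counterpart was 1.05 in cbe1 and 1.04 in Col0, and the log2 ratios of cbe1 over Col0 had a median of -1.08 in the insertion entries and -1.16 in the counterparts. The 2 log2 ratios of a pair differed by 0.147 at the median. These 26 pairs were picked by their level in Col0, the group in which most of them were higher. Over all 54 pairs, 35 had levels within 2-fold in Col0, and the median level ratio was 1.18 in cbe1 and 1.23 in Col0. Their median log2 ratios were -1.15 in the insertion entries and -1.2 in the counterparts, and the 2 ratios of a pair differed by 0.268 at the median.

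Single pairs show how close the values ran. For rps12, AT2G07675 stood at 8.85 FPKM in cbe1 and 22.5 FPKM in Col0, and ATMG00980 at 8.68 FPKM in cbe1 and 22.1 FPKM in Col0. For atp1, the counterpart ATMG01190 was at 11.0 FPKM in cbe1 and 25.5 FPKM in Col0 (log2 -1.21, beside -1.24 in the insertion entry). The counterpart of the atp9 copy, ATMG01080, was at 103 FPKM in cbe1 and 125 FPKM in Col0 (log2 -0.27, beside -0.29). Members of the ATP synthase group had the same order in both sets of entries, with atp1 lowest and atp8 and atp9 within their errors of each other. The same reads may lie behind both sets, so nothing is read from the equal order. ATMG00480, for atp8, had a log2 ratio of -0.34 beside -0.37, and ATMG00410, for atp6, 0.12 beside 0.19 in AT2G07741. Counterparts of cob, cox3, nad3 and rpl5, which are ATMG00220, ATMG00730, ATMG00990 and ATMG00210, had log2 ratios of -0.728, -0.662, -0.998 and -1.14, beside -0.86, -0.35, -0.83 and -0.90 in the insertion. Among the entries without a known gene, ATMG00500 (log2 -1.14) and ATMG00400 (log2 -0.56) stand beside AT2G07708 (-0.97) and AT2G07835 (-1.12). Their levels were apart, though, AT2G07708 standing 4.78-fold above its counterpart in cbe1 and 4.25-fold in Col0, and AT2G07835 2.27-fold in cbe1 and 3.34-fold in Col0. The locus of AT2G07708, joined with that of AT2G07709, has 7666 bases and that of ATMG00500 has 577. Levels were furthest apart for AT2G07807, of 114 bases, whose counterpart ATMG01060 was at 0.0488 FPKM in cbe1 and 0.805 FPKM in Col0, both far below the insertion entry.

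**Figure D4:**
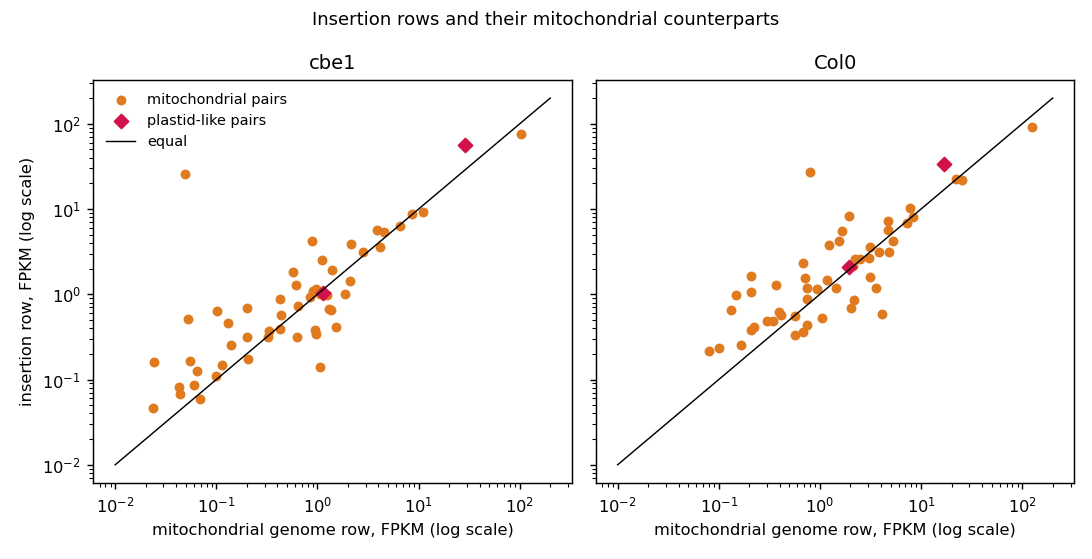
FPKM of the insertion entry (y axis) against FPKM of its mitochondrial counterpart (x axis) on log scales, for the 54 pairs, in cbe1 (left) and Col0 (right). Orange circles are mitochondrial pairs, red diamonds the 2 pairs on plastid pieces (rbcL and ycf1) and the line marks equal levels, near which most pairs above 1 FPKM lie in both groups.

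Values were also set side by side by annotation, shared sequence and strand. The median log2 ratio was -1.24 in the 63 protein-coding entries, -1.37 in the 27 transcribed pseudogenes and -1.65 in the 16 pseudogenes above 0 in both groups. Entries whose every 50-letter window is shared with the mitochondrial genome (50) and those with at least 1 window of their own (56) had medians of -1.37 and -1.36. Genes on the forward strand (56) and on the reverse strand (50) had medians of -1.30 and -1.40.

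Level did go with the ratio. From 0.1 to 1 FPKM (mean of both groups) the median log2 ratio of insertion entries was -1.51 (58 entries), from 1 to 10 FPKM -1.23 (36 entries) and above 10 FPKM -0.66 (12 entries). The mitochondrial genome had medians of -1.30, -1.19 and -0.89 in the same ranges. All other nuclear entries had medians of -0.05, 0.20 and 0.15. Nuclear pseudogenes elsewhere had -1.13 in the lowest of these ranges (674 entries) and 0.00 from 1 to 10 FPKM (157 entries). The insertion and the mitochondrial genome were thus the sets in this comparison with a median below -1 at 1 to 10 FPKM, while below 1 FPKM low ratios were also common among pseudogenes.

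Its surroundings were much the same in ratio but far lower in level. In the 500 kb on each side of the window, 217 entries were above 0 in both groups and had a median log2 ratio of -1.42, at a median level of 0.065 FPKM, beside 0.919 FPKM in the insertion. From 0.1 to 1 FPKM these flanks had a median of -1.57 (48 entries), and from 1 to 10 FPKM -0.07 (12 entries). Of their 32 tested entries, 1 was called lower and 1 higher. The part of the low level in the ratios of entries under 1 FPKM was not tested.

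At the left edge of the window the last entries outside, AT2G07580, AT2G07590 and AT2G07600, were at 0.0350, 0.0186 and 0.118 FPKM in cbe1 and 0.0586, 0.0912 and 0.299 FPKM in Col0. The first entries within it, AT2G07620, AT2G07630 and AT2G07635, were at 0.0271, 0.0380 and 0.0643 FPKM in cbe1 and 0.0771, 0.0476 and 0.194 FPKM in Col0, and all 3 lie before the insertion. The 7 entries before the insertion have no sequence in common with the mitochondrial genome and summed to 0.533 FPKM in cbe1 and 1.03 FPKM in Col0. At the right edge the last entries within, AT2G07666 and AT2G07670, were at 0.371 and 0.126 FPKM in cbe1 and 1.08 and 0.507 FPKM in Col0, and the tRNA gene AT2G07766 was at 0 in both. The first entries outside are ordinary nuclear genes and had higher values in cbe1. ABCC13 (AT2G07680), a membrane transporter, was at 1.26 FPKM in cbe1 and 0.814 FPKM in Col0 and was not called. MCM5 (AT2G07690), a subunit of the replicative helicase, rose to 5.82 FPKM in cbe1, against 3.20 FPKM in Col0 (log2 0.86, implied SE 0.24). AT2G07700 beyond it was at 0.0330 FPKM in cbe1 and 0.102 FPKM in Col0.

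**Figure D5:**
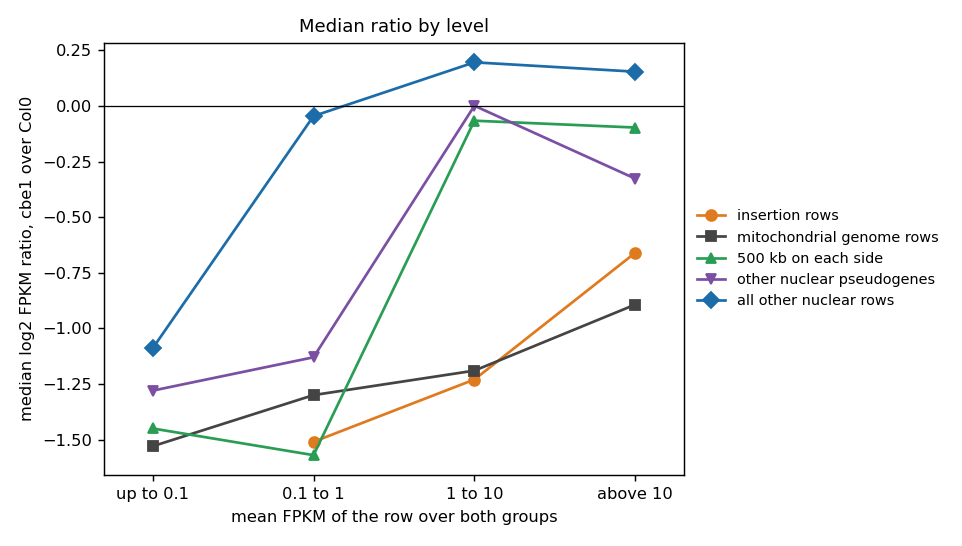
Median log2 FPKM ratio of cbe1 over Col0 (y axis) by the mean FPKM of the entry over both groups (x axis), for insertion entries, mitochondrial genome entries, entries within 500 kb of the window, other nuclear pseudogenes and all other nuclear entries. At 1 to 10 FPKM the insertion (-1.23) and the mitochondrial genome (-1.19) lie below the other sets, and the point of the insertion above 10 FPKM rests on 12 entries.

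Nuclear genes that act on mitochondrial transcripts or belong to the respiratory chain, complex II and cytochrome c included, had only higher calls. Higher calls also prevail over all tested entries, with 3.31% called higher and 1.63% lower. Of 17 nuclear genes for mitochondrial transcription, RNA processing and decay, 2 were called higher and none lower, with a median log2 ratio of 0.46. They were the RNA helicases PMH1, which rose to 6.53 FPKM in cbe1, against 3.65 FPKM in Col0, and PMH2, which rose to 12.5 FPKM in cbe1, against 7.68 FPKM in Col0. Of 15 nuclear genes of the respiratory chain, 3 were called higher and none lower (median 0.43), and at an unadjusted authors' p below 0.05 there were 11 higher and none lower, where 12.5% of all tested entries were higher at that threshold. CI76, a complex I subunit, rose to 30.4 FPKM in cbe1, against 20.1 FPKM in Col0, SDH1-1, of complex II, to 27.5 FPKM in cbe1, against 18.2 FPKM in Col0, and ATPbeta-2, of the ATP synthase, to 49.9 FPKM in cbe1, against 34.3 FPKM in Col0. Of 12 genes of the mitochondrial dysfunction response, 10 were tested and 1 was called higher (median 0.06), the alternative oxidase AOX1A at 24.98 FPKM in cbe1 and 16.2 FPKM in Col0. The second by level, ANAC017, a regulator of that response, was at 11.95 FPKM in cbe1 and 11.6 FPKM in Col0. Of 15 genes for DNA methylation and silencing of heterochromatin, which keep the neighbourhood of centromeres silent, 1 was called higher (median 0.37), the methyltransferase CMT3 at 6.44 FPKM in cbe1 and 3.10 FPKM in Col0, and HDA6, a histone deacetylase and the most abundant of them, was at 9.11 FPKM in cbe1 and 7.29 FPKM in Col0. These medians stand beside the shift of 0.175 over all tested entries with a mean of at least 1 FPKM.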

How the data were processed

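Poly(A) RNA of whole seedlings was sequenced from 3 cbe1 and 3 Col0 libraries. Per the submitters' processing notes the authors ran TopHat and then Cuffdiff on build TAIR10 (versions not stated). The authors deposited 1 FPKM value per gene and group, with a log2 fold change and a test statistic (each a score here), a p-value and a q-value, and no value per library. The sources used here do not say whether strand was used or how reads that match several places were shared out.

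The entries and gene lists were chosen with earlier results of these data known. Entries are named by a rule of at least 1 FPKM in a group or a call, up to 30 by mean FPKM, with the window edges and the mitochondrial extremes, and those beyond it were chosen after their values were seen. Log2 ratios were taken from the deposited FPKM without a pseudocount. Sequences and annotation are RefSeq's for TAIR10.1, whose chromosome 2 has the length of TAIR10, while its mitochondrial genome is another sequence than the authors', so no mitochondrial coordinate was compared. A mitochondrial gene was assigned to an entry where it covered at least 0.25 of it or 500 bases. Entries mostly covered by matR were counted under matR even where nad1 covered them too. The insertion was aligned with blastn 2.17.0 (blocks of at least 1000 bases at 99% identity) under Python 3.11.15 with pandas 2.3.3. Steps were tested on simulated data. Alternatives tried were a q-value of 0.01, a log2 ratio of at least 1, a mean of at least 1 FPKM, pseudocounts, recentring on the median gene and other sets of entries.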

Additional observations from a re-analysis of the deposited data

How the results depend on the processing

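No paired analysis was possible because the table holds 1 value per group, and for the same reason no library could be left out. In all, 54 alternative values of 8 results were computed. None of the medians and summed ratios among them reversed direction. The counts of called entries have no direction that could reverse. The 1 insertion entry called higher became 0 at a q-value of 0.01, at a log2 ratio of at least 1, with all statistics shifted to the median gene, and without the plastid-like entries. The 20 called lower became 12 at a q-value of 0.01. The median log2 ratio of the insertion, -1.37, became -0.39 with log2(FPKM + 1), -0.91 with log2(FPKM + 0.1), -1.13 at a mean of at least 1 FPKM and -1.54 recentred on the median gene, which no scaling of the libraries can move. That of the mitochondrial genome, -1.21, became -0.51, -0.97 and -1.38 with both pseudocounts and recentred. The summed FPKM ratio of cbe1 over Col0, 0.572 for the insertion, became 0.492 without plastid-like entries, 0.672 on loci of at least 300 bases, 0.507 recentred and 0.668 without the most abundant entry. For the mitochondrial genome, 0.394 became 0.234 on loci of at least 300 bases, 0.349 recentred and 0.489 without the most abundant entry. The other values moved by less than 0.1 on the log2 scale or, for counts, by no more than 1.5-fold. The cause of these moves was not tested. The restrictions to plastid-free entries, to loci of at least 300 bases and to the aligned stretch were chosen after seeing the data.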

Other observations

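Nuclear loci outside the window were searched for mitochondrial sequence in alignments of at least 500 bases at 95% identity or more that cover at least 50% of the locus. Within that filter 1 locus was found, on chromosome 1 from 24272518 to 24277275, of which 72.8% aligned, at 99.93% identity. Its 3 entries had lower values in cbe1 as well, and none was called. AT1G65346 was at 0.0842 FPKM in cbe1 and 0.195 FPKM in Col0. AT1G65347 was at 0.171 FPKM in cbe1 and 0.668 FPKM in Col0. AT1G65350 was at 0.828 FPKM in cbe1 and 1.09 FPKM in Col0.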
